A study of Sus scrofa with 16 samples.

Results

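The circadian clock genes were followed in the whole pituitary glands of 16 Złotnicka White pigs, a Polish native breed. Of the 10 listed symbols (CLOCK, ARNTL, PER1, PER2, PER3, CRY1, CRY2, NR1D1, NR1D2 and DBP), 9 were found by symbol among the 25880 genes of the count table. The row of the tenth, NR1D2, carried no symbol, was identified by its Ensembl ID in a gene name table, and is described apart from the other 9. All 9 members and NR1D2 passed the filter on low counts, which left 13621 genes to be tested.

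All pigs were females labelled as 180 days old, unrelated and from different farms, kept at 1 test station on equal feed and in equal housing, and slaughtered at about 100 kg. They received no drug and carried no engineered allele. The LFC group held 8 pigs with low feed conversion and the HFC group 8 pigs with high feed conversion, that is, with less and with more feed used per unit of weight gained. The paper reports that HFC pigs of this breed spent more days in the test, gained weight more slowly and had thicker fat at several points. The shared age label therefore does not show that the groups were of equal age. Age at slaughter, growth and fatness cannot be told apart from the group. Each pig gave 1 RNA-seq library, which did not keep the strand. The hour of slaughter is not given in the sources used here, and each gland was sampled once, so phase, period and amplitude of a rhythm could not be measured.

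The clock of mammalian cells is a loop of transcription. CLOCK and ARNTL (also called BMAL1) bind as a pair to regulatory DNA of the PER, CRY, NR1D and DBP genes and switch them on, and the PER and CRY proteins return to the nucleus and hold the pair back. NR1D1 and NR1D2 (REV-ERB alpha and beta) repress ARNTL in a second loop, so that in a rhythmic tissue ARNTL transcripts peak at another time of day than those of NR1D1, DBP and the PER genes. The pituitary holds such a clock and also receives timing signals from the hypothalamus and from blood hormones.

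Total counts ran from 6010629 to 11794256 per library, with a median of 7803047 in LFC and 9027332 in HFC pigs. The hormone genes that define the gland were abundant: summed over the 10 marker genes of pituitary hormone cells that were tested, the level was at least 105403 CPM in every library. CPM gives a gene’s reads relative to the size of its library, here the total count for these sums and the TMM-scaled size for single genes. Markers of posterior lobe glia varied far more, from 130 to 6336 CPM in LFC and from 121 to 3604 CPM in HFC pigs, and those of blood cells from 280 to 1262 CPM and from 69.5 to 927 CPM. The lactotroph hormone PRL was higher in HFC pigs by 1.27 on the log2 scale and the corticotroph precursor POMC was lower, at −1.23, neither past the adjusted threshold (adjusted p = 0.372 and 0.383, the quasi-likelihood test of edgeR with Benjamini-Hochberg adjustment). The part of these cell types in the clock gene values was not tested beyond relations with the glia markers, and in a whole gland fewer cells of a type and less RNA per cell cannot be told apart.

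The libraries also differed in how a gene's reading depended on its length in the genome. For each library, the length slope is the change in a gene's log2 CPM, relative to its mean over pigs, for each 10-fold increase in gene length. It ran from −0.27 to 0.12 in LFC pigs (median −0.04) and from −0.21 to 0.21 in HFC pigs (median 0.07), and the 3 lowest values belonged to LFC replicate 6, LFC replicate 4 and HFC replicate 5. Fold changes with this slope as a covariate are given beside the clock genes whose values it moved most.

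None of the clock genes differed between the feed conversion groups at the threshold of an adjusted p of 0.05 and a 1.3-fold change (0 of 9 members, against 0.0% of all genes tested, edgeR with Benjamini-Hochberg adjustment). Before adjustment, 1 of the 9 members, CLOCK, had a p of at most 0.05, where 11.4% of all genes tested did (1559 genes, of which 958 were higher in HFC and 601 lower). DESeq2, run as an alternative, called 29 genes (0.153% of 18963 tested) and none of the 9 members. The log2 fold change of HFC over LFC was positive for 8 of 9 members, with a median of 0.20, and for 47.9% of all genes tested, with a median of −0.01. ARNTL alone was negative, and CRY1 lay at 0.00. With the length slope as a covariate 7 of 9 were positive and the median was 0.07. The median was also lower without LFC replicate 4, at 0.11, and without HFC replicate 1, at 0.13. Because some members vary together from pig to pig, their shared sign is not 8 separate observations.

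**Figure D1:**
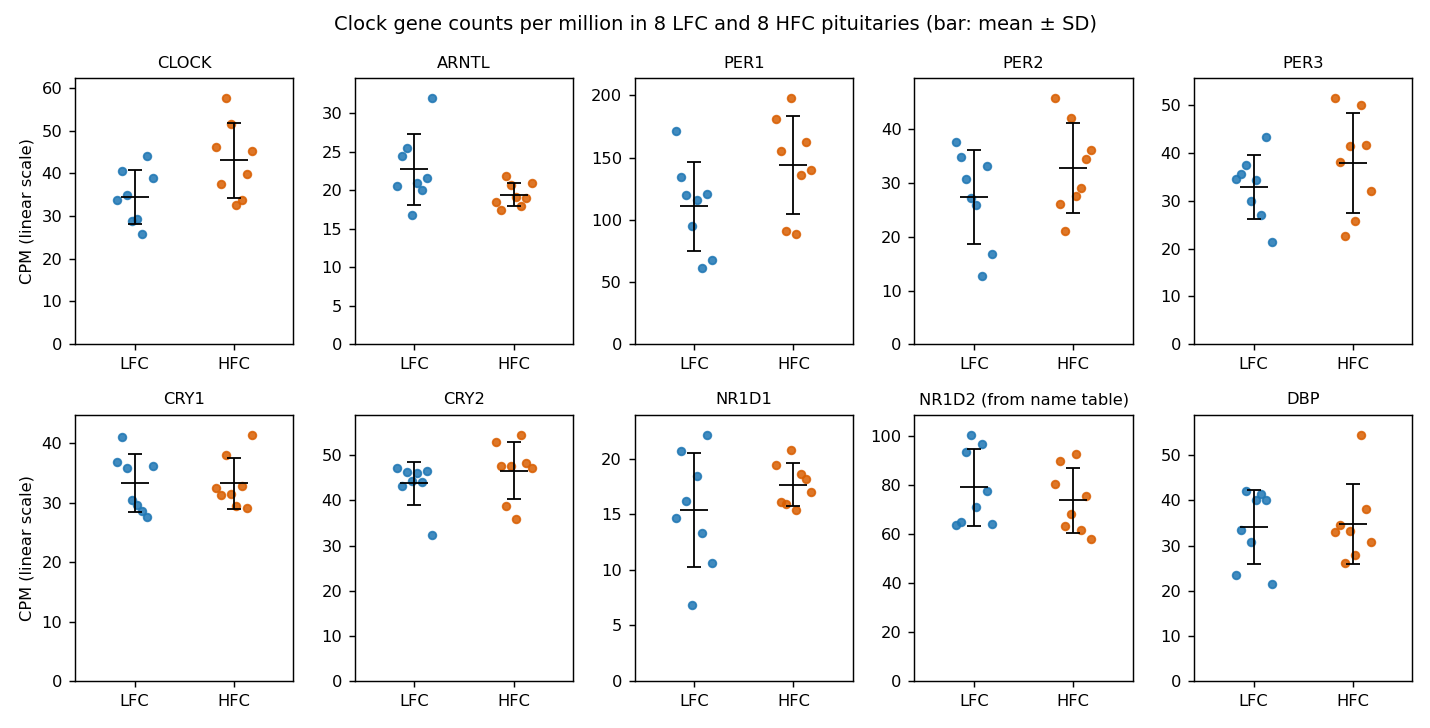
CPM (linear scale, TMM-scaled) of each clock gene, with 1 point for each of the 8 LFC and 8 HFC pigs and a bar for the mean ± SD. The ranges of the groups overlap in every panel; the highest point of ARNTL is LFC replicate 8 at 31.9 CPM and the lowest of NR1D1 is LFC replicate 4 at 6.85 CPM.

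CLOCK, the histone-acetylating partner of the activating pair, lies on chromosome 8 (54788863 to 54910133, Sscrofa11.1; ENSSSCG00000008909). Its level ran from 25.7 CPM through a median of 34.3 to 44.1 CPM in LFC pigs, and from 32.5 through 42.4 to 57.6 CPM in HFC pigs. The groups overlapped, but 6 of 8 HFC pigs stood above the LFC median and 4 above the highest LFC pig. The means were 34.5 ± 6.37 and 43.0 ± 8.76 CPM (SD, n = 8 each), a log2 fold change of 0.32 (SE 0.13, unadjusted p = 0.0278, adjusted p = 0.421, edgeR with Benjamini-Hochberg adjustment). CLOCK followed the length slope closely, with Pearson's r = 0.85 and Spearman's rho = 0.956 over 16 pigs (permutation p adjusted over 36 relations 0.00108 and 0.00036), and with r = 0.91 in LFC and 0.73 in HFC pigs. Without the 2 pigs farthest from the median slope, r was 0.765. The slope is fitted over the tested genes with coordinates, CLOCK (121271 bases) among them. Long genes as a set therefore rise with it by construction, and the share of them with such an r was not computed. With the length slope as a covariate, the CLOCK fold change was 0.13 on the log2 scale (unadjusted p = 0.170).

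ARNTL, the obligate partner of CLOCK, lies on chromosome 2 (45894366 to 46025116; ENSSSCG00000013397). Its level ran from 16.7 CPM through a median of 21.2 to 31.9 CPM in LFC pigs, and from 17.4 through 19.1 to 21.8 CPM in HFC pigs. The HFC pigs were packed into a narrow band, with 7 of 8 below the LFC median, and lay inside the LFC range. The means were 22.7 ± 4.58 and 19.4 ± 1.54 CPM (SD, n = 8 each), a log2 fold change of −0.23 (SE 0.11, unadjusted p = 0.0601, adjusted p = 0.441, edgeR with Benjamini-Hochberg adjustment). The value rested in part on LFC replicate 8, without which it was −0.12. With the length slope as a covariate it was −0.31 (unadjusted p = 0.0110), with adjusted p from 0.226 to 0.926 over all alternatives in edgeR, DESeq2 and limma. Across pigs, the r of ARNTL with the length slope was 0.218 (adjusted permutation p = 0.577).

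**Figure D2:**
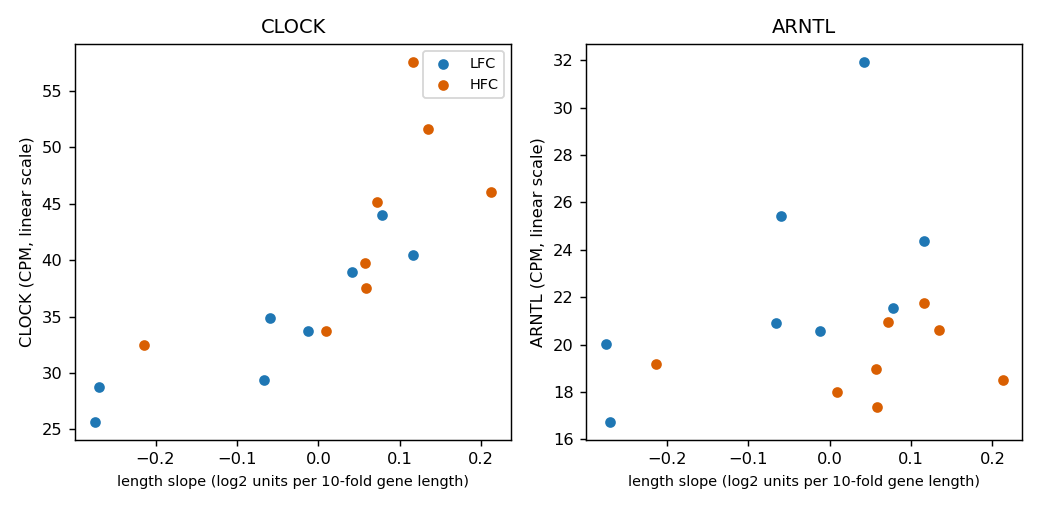
Level of CLOCK (left) and ARNTL (right) in CPM on a linear scale against the length slope of the same library, in log2 units per 10-fold gene length, with 1 point per pig. CLOCK rises along the slope in both groups (r = 0.85 over the 16 pigs on the log2 scale), and the r of ARNTL with it is 0.218.

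The PER genes encode the repressors whose build-up closes the loop, and PER1 and PER2 also answer directly to acute signals. PER1 (chromosome 12, 53341329 to 53376723; ENSSSCG00000017983) ran from 61.5 CPM through a median of 118 to 172 CPM in LFC pigs and from 88.3 through 147 to 198 CPM in HFC pigs. Both groups covered most of the same range, with 6 of 8 HFC pigs above the LFC median. The means were 111 ± 35.8 and 144 ± 39.1 CPM (SD, n = 8 each), a log2 fold change of 0.38 (SE 0.20, unadjusted p = 0.0809, adjusted p = 0.457, edgeR with Benjamini-Hochberg adjustment). This was the highest fold change of the 9 members. With the length slope as a covariate it was 0.15.

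PER2 (chromosome 15, 137793421 to 137836268; ENSSSCG00000016338) ran from 12.7 CPM through a median of 29.0 to 37.6 CPM in LFC pigs and from 21.1 through 31.8 to 45.8 CPM in HFC pigs. LFC replicates 6 and 8 were the 2 lowest pigs of PER2 and of PER1 alike. The PER2 log2 fold change was 0.26 (SE 0.20, unadjusted p = 0.214, adjusted p = 0.554, edgeR with Benjamini-Hochberg adjustment), and 0.085 with the length slope as a covariate. PER3 (chromosome 6, 68487640 to 68548721; ENSSSCG00000028572), which modulates the loop and is less needed for it, ran from 21.4 CPM through a median of 34.4 to 43.3 CPM in LFC pigs and from 22.6 through 39.8 to 51.5 CPM in HFC pigs. LFC replicate 8 was its lowest pig, and the groups overlapped over most of their range. The PER3 log2 fold change was 0.20 (SE 0.17, unadjusted p = 0.243, adjusted p = 0.582, edgeR with Benjamini-Hochberg adjustment), and 0.077 with the length slope as a covariate.

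The CRY proteins are the main repressors of the CLOCK and ARNTL pair, and their transcripts were the steadiest of the members. CRY1 (chromosome 5, 13275541 to 13364594; ENSSSCG00000000164) ran from 27.6 CPM through a median of 33.1 to 41.1 CPM in LFC pigs and from 29.2 through 32.0 to 41.4 CPM in HFC pigs. The group means were equal to 3 digits, 33.3 ± 4.86 and 33.3 ± 4.27 CPM (SD, n = 8 each), a log2 fold change of 0.00 (SE 0.10, unadjusted p = 0.997, adjusted p = 0.999, edgeR with Benjamini-Hochberg adjustment). CRY2 (chromosome 2, 16584431 to 16620669; ENSSSCG00000013270) ran from 32.4 CPM through a median of 45.2 to 47.2 CPM in LFC pigs and from 35.9 through 47.7 to 54.5 CPM in HFC pigs. In CRY2, 7 LFC pigs lay between 43.2 and 47.2 CPM and LFC replicate 8 stood alone below them. Of the 8 HFC pigs, 6 stood above the LFC median of CRY2 and 5 above its highest LFC pig. The CRY2 log2 fold change was 0.09 (SE 0.10, unadjusted p = 0.352, adjusted p = 0.657, edgeR with Benjamini-Hochberg adjustment).

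NR1D1, the nuclear receptor that represses ARNTL, lies on chromosome 12 (22263709 to 22275515; ENSSSCG00000036933). It ran from 6.85 CPM through a median of 15.4 to 22.2 CPM in LFC pigs and from 15.4 through 17.6 to 20.8 CPM in HFC pigs. As with ARNTL, the HFC pigs formed a narrow band within the LFC range, with SDs of 5.13 CPM in LFC and 1.90 CPM in HFC pigs. The log2 fold change was 0.20 (SE 0.18, unadjusted p = 0.280, adjusted p = 0.607, edgeR with Benjamini-Hochberg adjustment), 0.10 without LFC replicate 4 and 0.04 with the length slope as a covariate. That pig, with 45 reads of NR1D1, was the lowest for NR1D1 and for ARNTL alike.

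NR1D2, the close relative of NR1D1, lies on chromosome 13 (10757159 to 10791285; ENSSSCG00000027017). It ran from 63.4 CPM through a median of 74.2 to 100.3 CPM in LFC pigs and from 58.0 through 71.9 to 92.6 CPM in HFC pigs. The groups overlapped widely, with a log2 fold change of −0.10 (SE 0.13, unadjusted p = 0.447, adjusted p = 0.718, edgeR with Benjamini-Hochberg adjustment). With the length slope as a covariate this fold change was 0.044. DBP, a transcription factor driven by CLOCK and ARNTL that carries the rhythm to output genes, lies on chromosome 6 (53986958 to 53993020; ENSSSCG00000003148). It ran from 21.5 CPM through a median of 36.7 to 42.2 CPM in LFC pigs and from 26.2 through 33.0 to 54.5 CPM in HFC pigs. HFC replicate 6 stood above all the others, and without it the log2 fold change of 0.03 (SE 0.16, unadjusted p = 0.856, adjusted p = 0.940, edgeR with Benjamini-Hochberg adjustment) became −0.09.

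**Figure D3:**
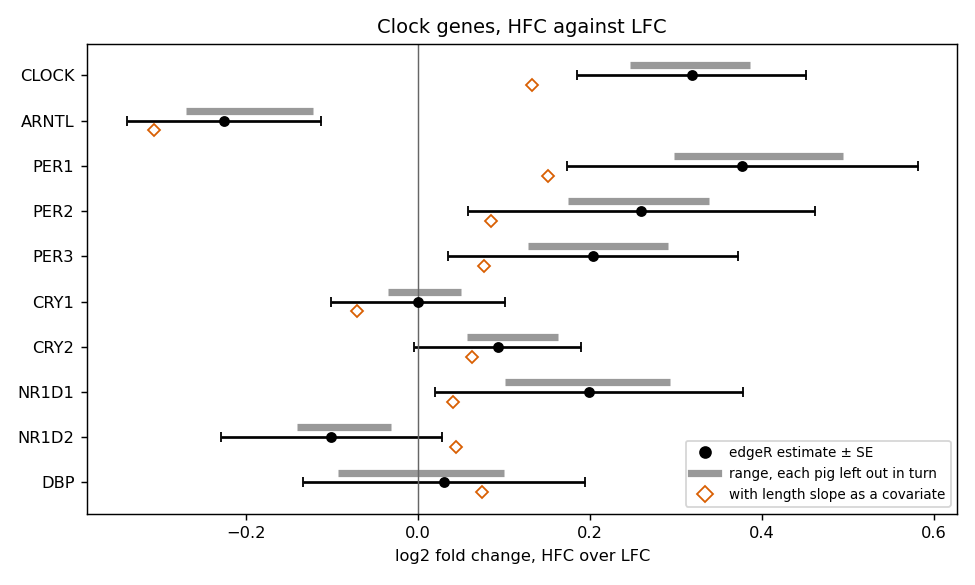
Log2 fold change of HFC over LFC for each clock gene: black points with bars give the edgeR estimate ± SE, grey bars the range when each of the 16 pigs was left out in turn, and open diamonds the estimate with the length slope as a covariate. CLOCK (0.32), PER1 (0.38), PER2 (0.26), PER3 (0.20) and NR1D1 (0.20) sit to the right of 0 and their diamonds lie nearer to 0, while that of ARNTL lies farther from it.

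The spread of the members from pig to pig was compared with that of genes of like level (mean log2 CPM within 1 of the member’s), since the levels of different genes cannot be set against each other without transcript lengths, which the files do not hold. The coefficient of variation of PER1 was 31.4%, above that of 91.6% of 2451 genes of like level, and that of PER2 29.0%, above 84.9% of 5897. CRY2, at 12.5%, and CRY1, at 13.3%, stood low, above only 21.1% and 22.3% of their like. From the lowest to the highest pig, PER2 spanned 3.62-fold, NR1D1 3.23-fold and PER1 3.22-fold, against 1.68-fold for CRY2 and a smaller ratio for CRY1.

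Some pairs within the repressing arm moved together across pigs. Of the 36 pairs among the 9 members, 4 passed with both Pearson's r and Spearman's rho of log2(CPM + 1) after Benjamini-Hochberg adjustment over the 36 pairs: PER1 with PER2, PER3 with CRY2, PER1 with PER3, and PER1 with CRY2. All of these were positive and within the repressing arm. As background, 4.40% of the 122580 relations between a member and any other gene tested had an absolute r at least as high as the lowest of the 4, 0.719.

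PER1 and PER2 had the highest r of the 36 pairs, with r = 0.900 and rho = 0.850 over 16 pigs (permutation p 1e-05 and 8e-05, the first being the smallest that the resamples can give; adjusted 0.00018 and 0.0012). It was seen in both groups, with r = 0.955 in LFC pigs (exact permutation p = 0.000223) and 0.794 in HFC pigs (exact permutation p = 0.0192). Among 13620 other genes, PER2 had the highest r with PER1, and PER1 the highest with PER2. LFC replicates 6 and 8 were low in both genes, and without these 2 pigs r was 0.789. Left-out pigs moved r between 0.863 and 0.936.

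PER3 and CRY2 had the next highest r and the highest rho, with r = 0.893 and rho = 0.871 (adjusted permutation p = 0.00018 and 0.00072). The r was 0.821 in LFC pigs (exact permutation p = 0.0154) and 0.932 in HFC pigs (exact permutation p = 0.00131), and 0.837 without LFC replicate 8 and HFC replicate 3, the 2 pigs farthest from the PER3 median. PER3 ranked 1st among 13620 genes for CRY2, and CRY2 ranked 7th for PER3. PER1 also followed PER3 (r = 0.788, rho = 0.759, adjusted permutation p = 0.00432 and 0.00785) and CRY2 (r = 0.719, rho = 0.847, adjusted permutation p = 0.0128 and 0.0012). By r with PER1, PER3 ranked 123rd and CRY2 445th, and PER1 ranked 105th for PER3 and 68th for CRY2. PER1 with PER3 did not pass without the 3 libraries of lowest length slope (rho = 0.588, adjusted permutation p = 0.152). The r of PER1 and CRY2 was 0.612 in LFC pigs (exact permutation p = 0.108) and 0.808 in HFC pigs (exact permutation p = 0.0247). The relation of PER1 and CRY2 did not pass without LFC replicate 8, where r was 0.628, or with the group means subtracted, where r was 0.702 and the adjusted permutation p of rho was 0.0522.

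With the length slope removed, the 4 relations were lower by rank. With each gene taken as its residual after a linear fit on the slope, r was 0.854 for PER1 with PER2, 0.895 for PER3 with CRY2, 0.739 for PER1 with PER3 and 0.738 for PER1 with CRY2. By rank, Spearman's rho was 0.659, 0.703, 0.550 and 0.676 in the same order, with adjusted permutation p from 0.0570 to 0.119, so that no pair passed on both measures. Scaling by the total count in place of TMM, which scales by the bulk of genes, raised the number of pairs that passed to 15.

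**Figure D4:**
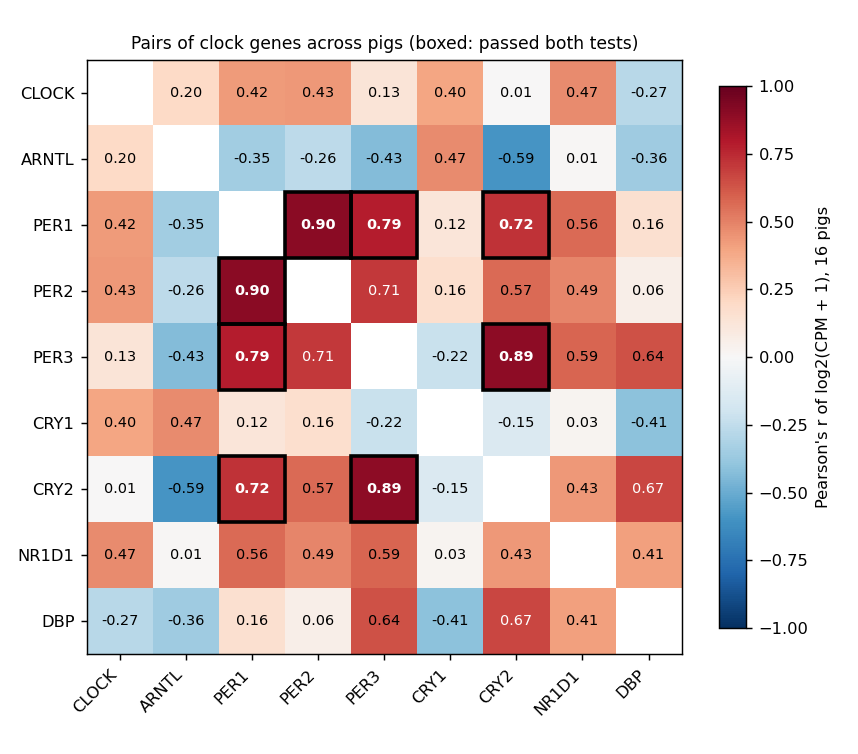
Pearson's r of log2(CPM + 1) over the 16 pigs for each of the 36 pairs of the 9 members, from −1 (blue) to 1 (red). The 4 boxed pairs passed both tests and all lie among PER1, PER2, PER3 and CRY2, while the row of CRY1 stays between −0.41 and 0.47.

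CRY1 had no such relation with the other repressors. Its r was 0.12 with PER1, 0.16 with PER2, −0.22 with PER3 and −0.15 with CRY2, and none of its 8 pairs passed. CLOCK and ARNTL, whose proteins act as a pair, had r = 0.201 and rho = 0.353 (adjusted permutation p = 0.613 and 0.311). Within the groups it was higher, 0.581 in LFC pigs (exact permutation p = 0.127) and 0.750 in HFC pigs (exact permutation p = 0.0371), and 0.572 with both genes centred on their group means. None of the pairs of CLOCK passed.

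The r of ARNTL was negative with 5 members and positive with CRY1, CLOCK and NR1D1. It was −0.593 with CRY2, −0.431 with PER3, −0.359 with DBP, −0.350 with PER1 and −0.264 with PER2, against 0.470 with CRY1 and 0.01 with NR1D1. None of these passed, the nearest being ARNTL with CRY2 (rho = −0.521, adjusted permutation p = 0.0731 and 0.118). LFC replicate 8, the highest pig for ARNTL and the lowest for CRY2, PER3 and DBP, had the most weight in that relation. Without this pig the r of ARNTL and CRY2 was −0.237. The negative values also hold for TMM scaling only. Scaled by the total count, the r of ARNTL was −0.034 with CRY2, 0.014 with PER3, −0.051 with DBP, 0.033 with PER1 and 0.058 with PER2.

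DBP leaned towards PER3 and CRY2, with r = 0.640 and 0.668 (adjusted permutation p = 0.0400 and 0.0267), but rho was 0.550 and 0.406 (adjusted permutation p = 0.0976 and 0.216), so neither pair passed. NR1D1 and PER3 showed the reverse, with rho = 0.759 (adjusted permutation p = 0.00783) and r = 0.586 (adjusted permutation p = 0.0644). Of the 9 relations of NR1D2 with the members, none passed. The strongest was with CRY1 and was negative (r = −0.617, rho = −0.671, permutation p adjusted over the 9 relations 0.111 and 0.0509), and that with NR1D1 was r = −0.385.

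**Figure D5:**
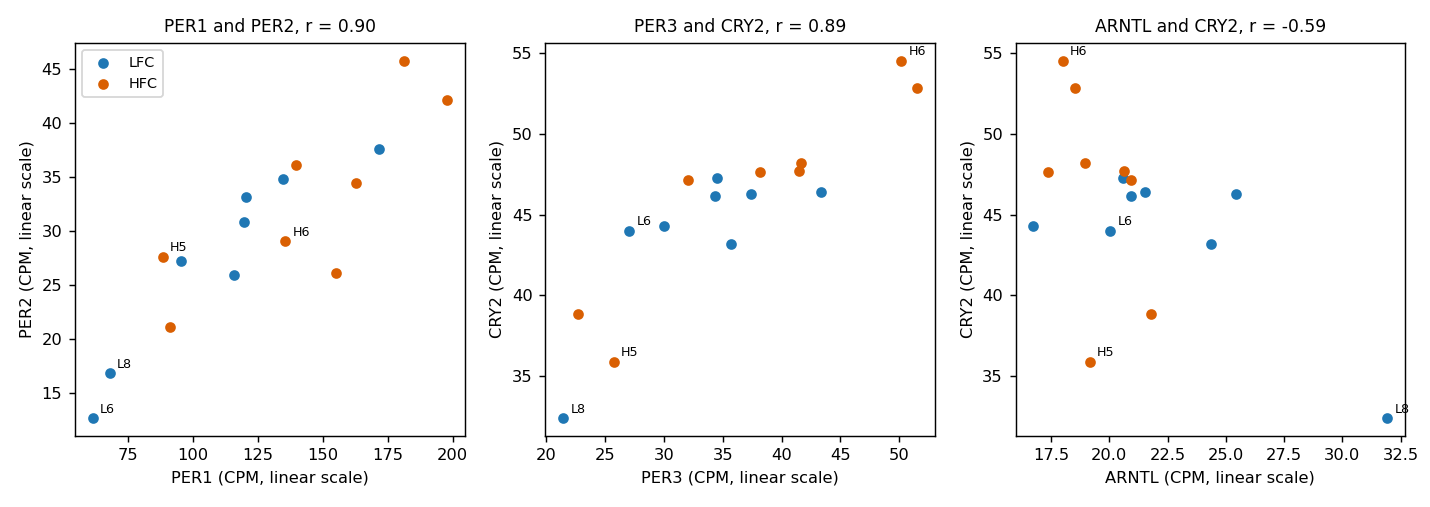
CPM on linear scales for PER1 and PER2 (left), PER3 and CRY2 (middle) and ARNTL and CRY2 (right), with 1 point per pig, and L6, L8, H5 and H6 marking LFC replicates 6 and 8 and HFC replicates 5 and 6. PER1 and PER2 rise from LFC replicates 6 and 8 at the lower left and PER3 and CRY2 from LFC replicate 8 and HFC replicates 3 and 5, and the third panel falls with LFC replicate 8 alone at the lower right (r = −0.593, and −0.237 without that pig).

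The members were also set against the total count, the length slope, the summed posterior lobe glia markers and the summed immediate early genes of each library, 36 relations in all. CLOCK (121271 bases) with the length slope, which long genes as a set follow by construction, was the 1 relation that passed. ARNTL, the longest member at 130751 bases, had r = 0.218 with that slope. NR1D1 (11807 bases, r = 0.644) and PER1 (35395 bases, r = 0.632) came next with the length slope (adjusted permutation p = 0.0652 each). The part of each member's own length in these values was not tested. PER2 with the immediate early genes had r = 0.658 (adjusted permutation p = 0.0652) but rho = 0.409. The glia markers gave absolute r of at most 0.39 with each of the 9 members. By rank, their highest relations were with PER3 (rho = 0.518) and CRY2 (rho = 0.476), with adjusted permutation p = 0.211 and 0.256. Over HFC pigs alone, DBP and the glia markers had r = 0.914, and the value over all 16 pigs without the 2 farthest was −0.09.

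The wider clock network was described with 25 further genes, all of which were tested. Unadjusted p was at most 0.05 for 1 gene higher in HFC (7.03% of all genes tested) and 2 lower (4.41% of all genes tested), none passed the adjustment, and the median log2 fold change was 0.03 against −0.01 for all genes. The one above was TIMELESS, a partner of PER proteins and of the replication fork, at 4.41 ± 0.915 CPM in LFC and 6.04 ± 1.77 CPM in HFC pigs (SD, n = 8 each; log2 fold change 0.46, SE 0.20, unadjusted p = 0.0341, adjusted p = 0.427, edgeR with Benjamini-Hochberg adjustment). Among those below was NFIL3 (E4BP4), which competes with DBP for its binding sites, at −0.38 (SE 0.14, unadjusted p = 0.0163, adjusted p = 0.413 in the same edgeR fit). NFIL3 levels were 8.19 ± 0.864 CPM in LFC and 6.31 ± 1.37 CPM in HFC pigs (SD, n = 8 each).

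By role, the 5 genes beside CLOCK and ARNTL in the positive arm and its ROR activators ran from −0.19 (ARNTL2) to 0.24 (RORA) on the log2 fold change scale, and none had an unadjusted p of at most 0.05. TEF and HLF, the relatives of DBP, were at 0.03 and 0.00, and the repressors BHLHE40 and BHLHE41 both at 0.15. The kinases that phosphorylate PER proteins differed little, with CSNK1D at 0.06, CSNK1E at 0.10 and CSNK1A1 at −0.08. The output genes WEE1, NAMPT and KLF10 were between −0.14 and −0.08, and PPARA, at no more than 1.94 CPM in any pig, at 0.26. The 6 immediate early genes tested, which mark acute stimulation, and the 6 glucocorticoid-responsive genes had none with an unadjusted p of at most 0.05. Among the immediate early genes, NR4A1 alone spanned 17.3 to 321 CPM over the pigs.

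Of 225 relations between a member and a further clock gene, 9 passed on both r and rho after adjustment over the 225. The 9 passed by adjusted p and not by a cutoff on r. As background, 4.40% of the relations between a member and any other gene tested had an absolute r of at least 0.719. For CLOCK this share was 17.1%. CLOCK held 4 of the 9: with its close relative NPAS2 (r = 0.789, rho = 0.829), with GSK3B (r = 0.837), TIMELESS (r = 0.797) and BTRC (r = 0.770). In that order they ranked 843rd, 441st, 758th and 996th by r with CLOCK among 13620 other genes. After the length slope was removed, the r of these genes with CLOCK was 0.679, 0.257, 0.369 and 0.407. NPAS2, the paralogue that can take the place of CLOCK beside ARNTL, was below GSK3B and TIMELESS by r before this step and had the highest r of the 4 after it.

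NAMPT, an enzyme of the pathway from nicotinamide to NAD, held 3 of the 9, all negative. Its r was −0.782 with PER3, −0.745 with CRY2 and −0.697 with NR1D1, and −0.725, −0.737 and −0.554 after the length slope was removed. In that order NAMPT ranked 13519th, 13499th and 12802nd from the highest r among 13620 other genes. Of those genes, 2.31%, 1.37% and 4.40% had an r of −0.719 or lower with PER3, CRY2 and NR1D1. Within the groups the relation with CRY2 was −0.43 in LFC pigs (exact permutation p = 0.283) and −0.963 in HFC pigs (exact permutation p = 0.000124). The remaining 2 were NR1D1 with BHLHE40 (r = 0.778, rho = 0.744) and CRY1 with CIART, a repressor of the CLOCK and ARNTL pair (r = −0.756, rho = −0.741). No relation of ARNTL with a further clock gene passed, with r between −0.685 (TEF) and 0.555 (CSNK1A1).

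Among the genes tested that have a symbol, those most like each member were listed by r over the 16 pigs as a description. CLOCK was closest to ARFGEF2 (0.968), SIPA1L1 (0.947) and TRAPPC11 (0.946), and 10.4% of the 13620 other genes had an r of at least 0.719 with it. ARNTL had few genes so close, 0.206% at that level, led by NEGR1 (0.817), PRNP (0.817) and SERBP1 (0.815). PER3 was closest to ENG (0.947), LAMB2 (0.929) and SEZ6L (0.923). ENG and LAMB2 encode an endothelial receptor and a basement membrane laminin. The 4 endothelial markers had a median log2 fold change of 0.36. VWF (0.78, unadjusted p = 0.0126, adjusted p = 0.413, edgeR) and CDH5 (0.43, unadjusted p = 0.0436, adjusted p = 0.432, edgeR) had an unadjusted p of at most 0.05. PECAM1 (0.06, unadjusted p = 0.725, edgeR) and KDR (0.29, unadjusted p = 0.166, edgeR) did not. Of all genes tested, 7.03% were higher in HFC at that p. Their summed level ran from 88.3 to 149 CPM in LFC and from 76.8 to 239.9 CPM in HFC pigs, and their part in the PER3 values was not tested. CRY2, after PER3, was closest to PMEPA1 (0.888) and ERBB4 (0.859).

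After PER2, the genes closest to PER1 were TNS2 (0.891) and SCRIB (0.883), and those closest to PER2 after PER1 were CTC1 (0.852) and HMCN1 (0.836). CRY1 was led by JAKMIP1 (0.861), DDX18 (0.810) and CORO1C (0.800). NR1D1 was led by VPS52 (0.868), IPO13 (0.866) and ZNF341 (0.864), and DBP by RAB7A (0.876), NFKBIB (0.863) and CTSF (0.835). NR1D2 was closest to B3GLCT (0.958), NMNAT3 (0.925) and CXCL16 (0.877). No member was among the 3 closest genes with a symbol of CLOCK, ARNTL, PER3, CRY1, NR1D1, NR1D2 or DBP.

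Some members share bases with a neighbouring gene, and without strand the reads of the shared part cannot be told apart. The longest overlap was that of NR1D1 with THRA, a thyroid hormone receptor gene, over 9417 bases. THRA stood at 161 to 229.5 CPM, and its r with NR1D1 was 0.138. DBP shared 3129 bases with CA11 (r = 0.602, rho = 0.503, permutation p adjusted over the 6 overlapping neighbours 0.0517 and 0.152), and CLOCK 2369 bases with TMEM165 (r = −0.238). ARNTL shared 226 bases with BTBD10, with which it had rho = 0.709 and r = 0.575 (adjusted permutation p = 0.0152 and 0.0517), and CRY2 101 bases with MAPK8IP1 (r = 0.093). The annotated span of PER1 in the authors' Ensembl annotation, 35395 bases, runs beyond that of RefSeq, 14861 bases, and that of CRY1 falls short of it, 89054 against 154302 bases. Whether reads of a neighbouring transcript were counted as PER1 was not tested, so the PER1 levels, fold change and relations hold for the Ensembl span.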

How the data were processed

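Whole pituitaries of 16 pigs were profiled, 1 library each. The authors deposited raw read counts per Ensembl gene, made with RSEM and STAR on Sscrofa11.1 from unstranded single-end TruSeq libraries, and named CASAVA 1.8.2 and FastQC in their notes. Each pig has 1 column, and 0 columns were left unmapped. The group label stands in the records under a tag for another trait, with values naming low and high feed conversion ratio. A second deposited table holds the authors' means, fold changes and p-values for the same comparison. It was used only for IDs, symbols and coordinates.

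Symbols came from that table (9550 genes), a gene name table (5875) or a single RefSeq gene sharing at least 50% of both spans (323). Counts were fitted with edgeR 4.0.16 (quasi-likelihood F test, TMM scaling, filterByExpr) in R 4.3.3, with p adjusted over 13621 genes. DESeq2 1.42.0 and limma 3.58.1 (voom with sample quality weights) were alternatives, as were other scalings, filters, a replicate block, a length covariate and each pig left out. Relations across pigs used log2(CPM + 1) and two-sided permutation tests with 100000 resamples, or exact ones over 8 pigs. The fits were tested on simulated data. Replicates are separate animals, and any 2 libraries of a group differed beyond counting noise (chi-square per degree of freedom 11.4 to 85.9). Genes named are the members, genes of fixed lists and the 3 genes with a symbol most like each member. The members and lists were chosen with earlier results of these data known. The values of 1 gene of these lists are not reported here.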

Additional observations from a re-analysis of the deposited data

Results flagged for a closer look

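In 94 groups of 8 pigs (47 clock, immediate early, glucocorticoid-responsive and related genes, each in LFC and in HFC), 5 held a pig that stood apart from the rest by Dixon's criterion, which chance alone meets in about 1 in 20 groups. Among the members, CRY2 was 32.4 CPM in LFC replicate 8, with the next LFC pig at 43.2 CPM, and DBP was 54.5 CPM in HFC replicate 6, with the next HFC pig at 38.2 CPM. Among the further genes, CSNK1D was 113 CPM in HFC replicate 5 (next 142 CPM), FBXL21 was 21.0 CPM in the same pig (next 13.9 CPM), and ZBTB16 was 70.7 CPM in LFC replicate 2 (next 49.3 CPM). LFC replicate 8 was also the lowest pig for PER3 and DBP and the highest for ARNTL.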

How the results depend on the processing

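Genes called between HFC and LFC numbered 0 in each alternative but DESeq2, which called 29, and none of the 9 members was called in any of the 26 settings. The count of genes at an unadjusted p of at most 0.05 was 1559, and 2540 with limma voom and sample quality weights, 650 with the length slope as a covariate and 989 (without HFC replicate 4) to 3514 (without HFC replicate 5) with 1 pig left out. Without LFC replicate 4 it was 1013. Of these genes 61.4% were higher in HFC, and 46.0% when scaled by total counts. Members at that p numbered 2 in place of 1 with limma voom, where 2540 of 13621 genes reached it. They also numbered 2 without the 3 libraries of lowest length slope (1971 of 13732 genes), an alternative chosen after seeing the data. With 1 pig left out they numbered 0 to 2. They were 0 without LFC replicate 5 (1398 of 13670 genes) or HFC replicate 4 (989 of 13676). They were 2 without LFC replicate 1 (1552 of 13666 genes), LFC replicate 4 (1013 of 13695), HFC replicate 3 (1225 of 13715) or HFC replicate 5 (3514 of 13697). CLOCK kept an unadjusted p of at most 0.05 in 22 of 26 settings, ARNTL reached it in 5 and PER1 in 3. CRY1 turned negative at −0.027 with limma voom, −0.071 with the length slope and −0.024 without the 3 libraries, and ranged from −0.035 to 0.051 with 1 pig left out. NR1D2 was 0.044 with the length slope, and DBP ranged from −0.093 to 0.10 with 1 pig left out. Pairs that passed numbered 15 under total counts, 0 after the length slope was removed (10 by r alone) and 3 (without LFC replicate 8) to 7 (without HFC replicate 3) with 1 pig left out. Relations with library measures numbered 2 under total counts, and 1 to 2 with 1 pig left out (2 without LFC replicate 5 or HFC replicate 3). The cause of these changes was not tested. The NR1D2, neighbour and further clock gene relations were also added after seeing the data. Same-numbered LFC and HFC pigs did not deviate together (correlations from −0.34 to 0.37, none of 8 highest with its own number), so the numbers do not pair them. With a replicate block, 0 genes were called and 1404 reached that unadjusted p. Counts as low as 45 reads (NR1D1) and 74 reads (PER2) limit single values.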

Other observations

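ELOVL3, a fatty acid elongase, was singled out after its values were seen: of 13620 genes it had the lowest r with ARNTL, −0.850 over 16 pigs (rho = −0.903), with −0.796 in LFC and −0.874 in HFC pigs. Its level was low, 3 to 18 reads or 0.363 to 2.74 CPM per pig, highest in LFC replicate 4, the lowest pig for ARNTL, and lowest in LFC replicate 8, the highest pig for ARNTL. As an extreme of all genes the value is a description and carries no test.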
